A study of Mus musculus with 4 samples.

Results

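The myogenic regulatory factors and the satellite cell genes of the mouse diaphragm were compared between muscle that holds the neuromuscular synapses and muscle that does not. The set was chosen by name as all probe sets of the array whose annotated symbol is Pax3, Pax7, Myf5, Myf6, Myod1, Myog, Cdh15, Calcr, Met or Vcam1. It comprised 10 of the 18193 genes on the array, read by 17 probe sets. Total RNA came from the left hemi-diaphragm, the left side of the muscle sheet that drives breathing. One group was the synaptic region and the other the non-synaptic region, with 2 arrays each. The labels name no strain, age, sex or treatment of the mice. They also do not say whether different animals supplied the 2 arrays of each region, so the p-values measure array-to-array spread that may be only technical. The arrays are called replicate 1 and replicate 2 after the number that ends each sample title.

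Satellite cells are the stem cells of skeletal muscle and lie between the fibre and its basal lamina. Pax3 and Pax7 are paired-box transcription factors that mark them, and the basic helix-loop-helix factors Myf5, Myod1, Myog and Myf6 then commit them and drive their differentiation by binding E-boxes, the motif CANNTG, in muscle genes. In adult fibres Myf6 is the most abundant of these factors, and the genes of the acetylcholine receptor, which nuclei under the synapse transcribe most, are among their known targets.

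Below, the 250 bases before the annotated start site are printed for Myog, a member that activates its own family's target genes, and for Chrna1 and Chrne, subunits of the muscle acetylcholine receptor whose levels differed most between the regions among the known targets. Sequences are from RefSeq, build GRCm38.p6, written 5′ to 3′ on the gene's strand, with CANNTG in capitals (Myog at chr1:134289754-134290003, plus strand, Chrna1 at chr2:73580339-73580588, minus strand, and Chrne at chr11:70619195-70619444, minus strand).
Myog: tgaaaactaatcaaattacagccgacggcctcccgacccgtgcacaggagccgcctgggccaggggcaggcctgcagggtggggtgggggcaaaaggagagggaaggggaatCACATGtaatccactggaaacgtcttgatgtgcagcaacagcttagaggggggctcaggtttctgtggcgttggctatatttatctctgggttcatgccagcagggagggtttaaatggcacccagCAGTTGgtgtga
Chrna1: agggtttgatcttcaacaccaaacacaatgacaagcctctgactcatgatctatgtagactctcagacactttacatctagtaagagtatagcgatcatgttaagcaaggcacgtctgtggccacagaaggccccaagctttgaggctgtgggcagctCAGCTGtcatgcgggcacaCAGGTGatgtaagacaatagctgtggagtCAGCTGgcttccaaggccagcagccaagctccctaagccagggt
Chrne: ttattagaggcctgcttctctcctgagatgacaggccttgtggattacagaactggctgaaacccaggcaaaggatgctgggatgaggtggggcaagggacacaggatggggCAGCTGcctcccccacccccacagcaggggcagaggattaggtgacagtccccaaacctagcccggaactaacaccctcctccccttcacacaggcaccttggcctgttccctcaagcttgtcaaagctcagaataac

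The window of Chrna1 held 3 E-boxes, 2 of them CAGCTG, that of Chrne held 1, also CAGCTG, and that of Myog held 2, and neither of those was of that form. Not every target is alike: the window of Myh3, an embryonic myosin with a difference of 1.45, held 1 and that of Chrnb1, a receptor subunit at a difference of 0.03, held 3, none of them CAGCTG. The window of Chrng, a receptor subunit whose signal was too weak to test, held 3, 2 of them CAGCTG. No window was matched for the receptor subunit Chrnd, and known targets other than the receptor subunits and Myh3 were not looked up. Read from the opposite strand, CANNTG is again CANNTG, and CAGCTG is a special case of it. Of all 32851 promoter windows of this length, 66.2% held at least 1 CANNTG and 13.0% at least 1 CAGCTG. Windows were found for 6 of the 10 members, 7 windows in all since Calcr has 2 starts, and 4 of the 7 held CANNTG while 0 held CAGCTG. Pax3, Myf6, Myod1 and Vcam1 were not matched. A match is a description of the letters and not evidence of binding. Chrna1 and Chrne were printed because of their differences, so these windows cannot test a link between E-boxes and the region difference.

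None of the member genes passed the test between the regions. All 10 genes had at least 1 probe set bright enough to test, 15 of the 17 in all, meaning a mean log2 intensity of at least 8.87, the 40th percentile of all values. Of these 15 probe sets, 0 were called higher and 0 lower by limma at an adjusted p under 0.05, where 0.00378% of all 26480 probe sets tested were called higher and 0.00755% lower. At an unadjusted p under 0.05 the members again gave 0 in either direction, against 0.653% of all probe sets higher and 0.332% lower. The smallest unadjusted p among them was 0.146, for Calcr. Of the 10 genes, each read by its brightest probe set, 2 were above 0 and 8 below, with a median log2 difference (synaptic minus non-synaptic) of -0.12, against 0.005 over all genes tested. For 7 of the 10 the 95% interval of the difference on that probe set excluded a 2-fold change in either direction. Met is among them, though on its dimmer probe set the interval ran from -3.54 to 2.14. These intervals rest on the same array-to-array spread as the p-values, which may be only technical. In a piece of muscle, fewer cells of a type and less RNA per cell cannot be told apart, and satellite cells are a small share of the nuclei.

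**Figure D1:**
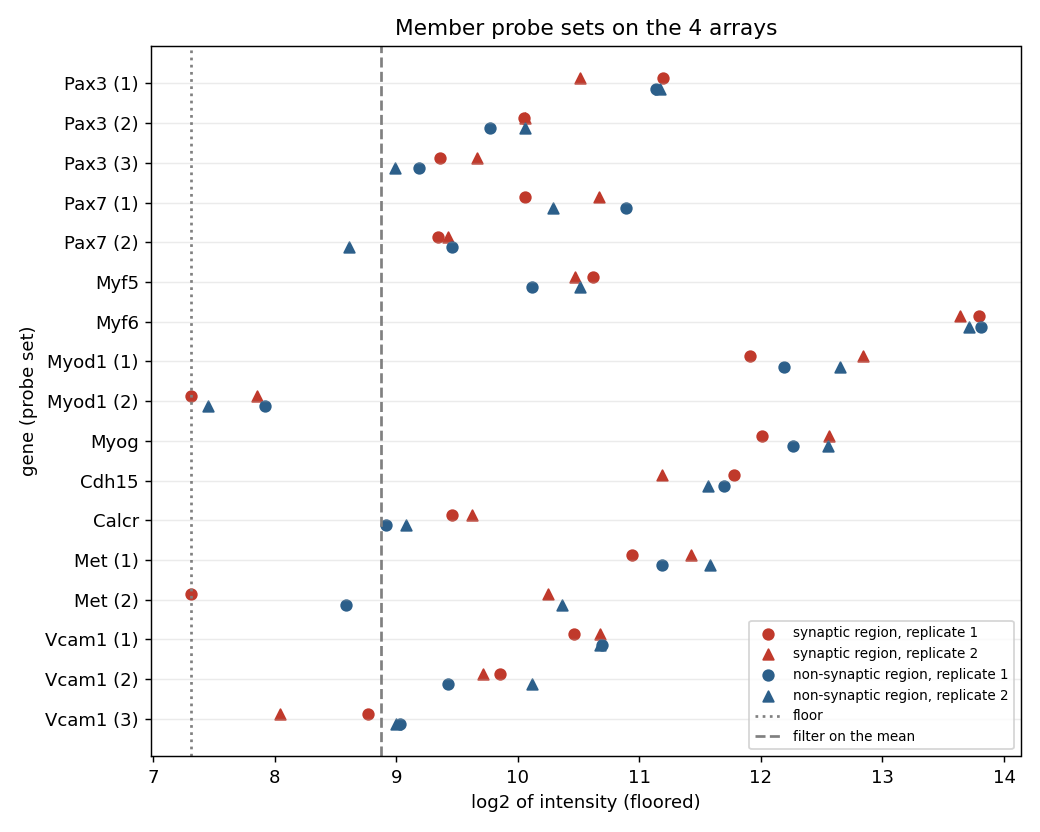
Log2 intensity of each of the 17 member probe sets on the 4 arrays, with values below the floor of 7.31 raised to it; red is the synaptic and blue the non-synaptic region, circles are replicate 1 and triangles replicate 2, and numbers in brackets count the probe sets of a gene from the brightest. Red and blue symbols are mixed for most genes; they are apart for Calcr and for the dimmest probe sets of Pax3 and Vcam1, while for the brightest probe set of Myod1, for Myog and for Met the circles lie left of the triangles.

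Pax3 had 3 probe sets, and they gave different signs. On the brightest, the synaptic arrays had intensities of 2346 and 1463 and the non-synaptic arrays 2249.6 and 2299, listed here and throughout as replicate 1 then replicate 2. The lower mean of the synaptic region there came from its replicate 2 alone, and the log2 difference was -0.30 ± 0.30 (SE, n = 2 arrays per region, 95% interval -1.06 to 0.47). The next probe set of Pax3 read 1061 and 1065 in the synaptic region and 873 and 1069 in the non-synaptic region, a difference of 0.14 ± 0.27. On the dimmest, both synaptic arrays (658 and 813) lay above both non-synaptic ones (584 and 509), with a difference of 0.42 ± 0.33. The level of Pax3 therefore has no direction that its probe sets share.

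Pax7, the factor on which the adult satellite cell pool depends, had intensities of 1067 and 1629.8 in the synaptic region and 1897 and 1254 in the non-synaptic region. The lowest and the highest of the 4 values were both from replicate 1, and the regions overlapped, with a difference of -0.23 ± 0.35 (95% interval -1.12 to 0.67). Its second probe set, at 649.8 and 689.5 against 704 and 391, gave 0.35 ± 0.41. For Pax7 too the probe sets differed in sign, and neither interval excluded a 2-fold change.

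Myf5, an early determination factor, had intensities of 1569.8 and 1417 in the synaptic region and 1112 and 1459.97 in the non-synaptic region. Only the non-synaptic replicate 1 stood below the rest, and the difference was 0.23 ± 0.27 (95% interval -0.45 to 0.90). Myf6, the late factor that persists in fibre nuclei, had 14201 and 12782 in the synaptic region and 14368 and 13422 in the non-synaptic region. It was the most tightly measured member, with a difference of -0.04 ± 0.17 and a 95% interval from -0.48 to 0.39. Myf5 and Myf6 are direct neighbours in the genome annotation (GRCm38.p6), and the intervals of both differences included 0.

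Myod1, the determination factor that in adult muscle is known from fast fibres, had intensities of 3847 and 7339.7 in the synaptic region and 4684 and 6435 in the non-synaptic region. Both arrays numbered 1 were below both numbered 2, and the synaptic arrays held the lowest and the highest value. The difference between regions was -0.05 ± 0.37 (95% interval -0.99 to 0.90), smaller than the spread of 0.66 (SD, log2) between the 2 synaptic arrays. The second probe set of Myod1, at 106 and 231 against 242 and 175, was near the floor of 159 and was not tested.

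Myog, myogenin, which drives terminal differentiation and is known to rise after denervation, had 4121 and 6045 in the synaptic region and 4913 and 6006 in the non-synaptic region. As with Myod1, the replicate 1 arrays were the lower ones in both regions. The region difference of -0.12 ± 0.27 (95% interval -0.80 to 0.56) was within the spread between arrays, which was 0.39 (SD, log2) in the synaptic region.

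Cdh15 encodes M-cadherin, the adhesion protein between satellite cell and fibre. Its intensities were 3509 and 2331 in the synaptic region and 3311 and 3022 in the non-synaptic region. The synaptic arrays again held both extremes, so the regions overlapped, with a difference of -0.15 ± 0.27 (95% interval -0.84 to 0.55).

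Calcr encodes the calcitonin receptor, known for keeping satellite cells quiescent. It was the member with the largest difference on a gene's brightest probe set. Its intensities were 704 and 789 in the synaptic region and 484 and 541 in the non-synaptic region, so the regions did not overlap. The difference was 0.54 ± 0.32 (95% interval -0.26 to 1.35, unadjusted p = 0.146, limma adjusted p = 0.9999), with a spread of 0.12 and 0.11 (SD, log2) within the regions. Calcr was the only one of the 10 genes whose difference exceeded the larger of its 2 within-region SDs. Among the 15 tested probe sets, Calcr and the dimmest of Pax3 had both synaptic arrays above both others and 0 had both below, while 9.89% of all probe sets tested lay above in this way and 9.98% below. These shares set 2 of 15 near the background. The signal of Calcr was close to the filter, and with the filter at the 60th percentile it was not tested.

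In the same arrays, markers of Schwann cells, the glia of motor axons, had a positive difference for 9 of 9 tested genes of 15 listed, of which 1 passed by limma at an adjusted p under 0.05 and 6 at an unadjusted p under 0.05. Both synaptic arrays were above the others for all 9, where 10.6% of all genes tested were. Their summed intensity ranged from 112305 to 126163 in the synaptic and from 35489 to 37736 in the non-synaptic region, and none of the 12 on the array was at the floor on all arrays. Of 9 fat cell markers 5 were tested, 4 of them below 0. By limma, 1 was lower at an adjusted p under 0.05 and 3 at an unadjusted p under 0.05. Of all genes tested, 0.00809% were higher and 0.00809% lower at the adjusted p, and 0.825% higher and 0.372% lower at the unadjusted p. Adipoq, which defines fat cells, was just above the floor in the synaptic region at 187 ± 2.5 (SD). The summed fat cell list, which also holds genes that other cells express, ranged from 229587 to 254491 in the synaptic and from 255267 to 265875 in the non-synaptic region. The part of these cell types in the difference of Calcr was not tested.

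The genes whose pattern over the 4 arrays was most like that of Calcr were Nek2, a mitotic kinase, at a distance of 0.025, Klf5, a zinc finger transcription factor, at 0.036, and Cpt1c, a carnitine palmitoyltransferase of neurons, at 0.059. The distance is Euclidean, between log2 values centred on each gene's mean. Of 12353 other genes 62 lay within 0.2.

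Met encodes the receptor of hepatocyte growth factor, which activates satellite cells. On its brighter probe set the intensities were 1963 and 2745 in the synaptic region and 2336 and 3068 in the non-synaptic region. Each synaptic array lay below the non-synaptic array with its number, and both arrays numbered 1 lay below both numbered 2, so that the regions overlapped with a difference of -0.21 ± 0.28 (95% interval -0.92 to 0.51). The dimmer probe set of Met gave 106 and 1215 against 385 and 1319. There the replicate 1 arrays were far below the others in both regions, and the synaptic one was under the floor. Its difference of -0.70 ± 1.12 had the widest interval of all the members, from -3.54 to 2.14.

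Vcam1 encodes an adhesion protein of satellite cells that is also known from activated endothelium. Its intensities were 1413 and 1641 in the synaptic region and 1652 and 1637 in the non-synaptic region. The synaptic replicate 1 was below the other arrays, which lay close together, and the difference was -0.11 ± 0.23 (95% interval -0.71 to 0.48). The second probe set read 927 and 838 against 688 and 1113, for a difference of 0.01 ± 0.35. The third, too dim to be tested, had both synaptic arrays (435 and 264) below both others (522 and 511), a difference of -0.61. Endothelial markers had a median of -0.10 over 12 tested genes, with 0 of 12 at an unadjusted p under 0.05.

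**Figure D2:**
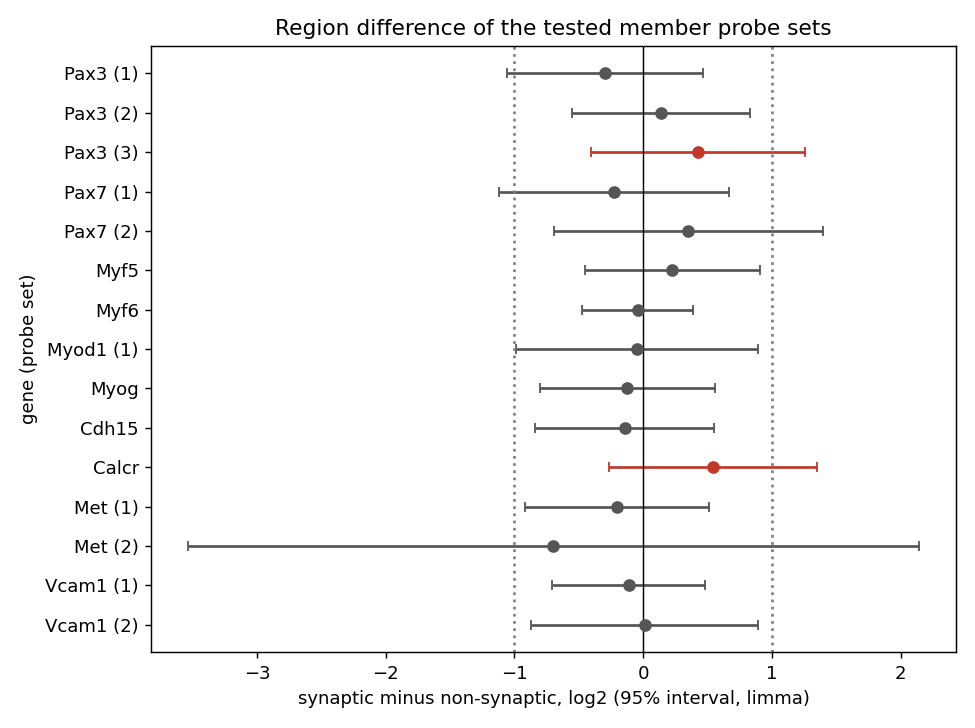
Log2 difference, synaptic minus non-synaptic, of the 15 tested member probe sets with the 95% interval of the limma fit; red marks probe sets whose regions do not overlap, and dotted lines mark a 2-fold change. Every interval includes 0, and 9 of the 15 lie within the dotted lines.

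Over the members, arrays sharing a replicate number lay closer together than arrays sharing a region. The median absolute log2 difference over the 15 tested probe sets was 0.25 between the regions for replicate 1 and 0.19 for replicate 2, against 0.31 between the 2 synaptic arrays and 0.29 between the 2 non-synaptic arrays. In 5 of the 15 both arrays numbered 1 were below both numbered 2, and in 2 of the 15 above. Over all tested probe sets the corresponding medians were 0.20 and 0.16 between regions and 0.35 and 0.30 within them. The labels do not say what the number stands for.

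Satellite cell markers outside the set did not pass either. All 20 listed genes were tested, 0 passed in either direction by limma at an adjusted p under 0.05 or an unadjusted p under 0.05, and their median difference was 0.01. The list also holds genes that other cells express, Cav1, Ncam1 and Notch3 among them. Its median therefore does not measure satellite cells alone. Among all 12363 genes tested, 0.00809% passed as higher and 0.00809% as lower with the adjusted p, and 0.825% were higher and 0.372% lower at an unadjusted p under 0.05. Ncam1, a neural cell adhesion molecule of satellite cells, synapses and Schwann cells, read 1832 and 2449.7 in the synaptic and 1369 and 1704 in the non-synaptic region. Its synaptic arrays were both above the others, with a difference of 0.47 ± 0.27, and its other tested probe sets gave 0.55 and 0.31. Of its 4 probe sets under the filter, 3 were positive and 1 gave -0.81 with both synaptic arrays below the others. Fzd7, a Wnt receptor of satellite cells, differed by 0.23 ± 0.20 with the regions apart. Hes1, a target of Notch signalling, at 0.23 ± 0.25, Chrdl2 at 0.21 ± 0.29, the surface marker Cd34 at -0.06 ± 0.26 and Cav1, the caveolin of satellite cells and endothelium, at 0.01 ± 0.25 all overlapped.

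The partners with which the myogenic factors act showed no shift as a list. Of 24 genes 20 were tested, 0 passed by limma at an adjusted or an unadjusted p under 0.05, and the median was -0.03. Dach2, a cofactor of the Eya proteins, read 3013 and 2845 in the synaptic and 3476 and 3374 in the non-synaptic region. Its difference was -0.23 ± 0.20 with the regions apart, and -0.36 ± 0.30 on its second probe set, where the regions overlapped. Eya4 differed by -0.23 ± 0.22 and Six2 by -0.22 ± 0.25, also with the regions apart, though another tested probe set of Eya4 gave 0.004 with the regions overlapping. Eya1 differed by 0.17 ± 0.21 on its brightest probe set and by -0.92 ± 0.72 on another, both with the regions overlapping. That other probe set read 172 and 676 in the synaptic and 545 and 762 in the non-synaptic region, so the synaptic replicate 1 stood far below the rest. The MADS-box partners Mef2c and Mef2d differed by -0.03 ± 0.17 and 0.13 ± 0.35.

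Inhibitors of the factors lay close to 0 as well. Of 20 listed 17 were tested, 0 passed by limma at an adjusted or an unadjusted p under 0.05, and the median was 0.03. Id2, which sequesters the E protein partners, read 1095 and 1237 in the synaptic and 1412 and 1554 in the non-synaptic region. Its regions did not overlap and its difference was -0.35 ± 0.24, while its other tested probe set gave 0.19. Msc, musculin, a repressor that binds E-boxes, differed by -0.18 ± 0.21 with the regions apart. Id1 at -0.07 ± 0.19, Snai1 at 0.30 ± 0.37 and Zeb1 at 0.28 ± 0.24 overlapped, and other tested probe sets of Zeb1 gave -0.41, with the regions apart, and 0.07.

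Ligands, co-receptors and adaptors of the members' surface proteins lay slightly above 0, with 13 of 17 tested genes positive and a median of 0.11. Over all genes tested, 6354 of 12363 were positive and the median was 0.005. None of the 17 passed by limma at an adjusted p under 0.05. At an unadjusted p under 0.05, 1 was higher and 0 lower, where 0.825% of all genes tested were higher and 0.372% lower. In 6 of the 17 the synaptic arrays were both above the others and in 0 both below, where 10.6% of all genes tested lay above and 9.85% below. Ramp1, which pairs with the calcitonin receptor to form an amylin receptor and with a related receptor to bind the peptide CGRP, read 19829.7 and 17702 in the synaptic region and 12885 and 13669.6 in the non-synaptic region. Its difference was 0.50 ± 0.17 (unadjusted p = 0.0299, limma adjusted p = 0.9999), and its other tested probe set gave 0.95 with overlapping regions, and a dimmer one, not tested, -0.72. Hgf, the ligand of Met, read 641 and 726 against 590.2 and 321, a difference of 0.65 ± 0.43, or 0.21 without the non-synaptic replicate 2. The other 2 probe sets of Hgf were below the filter. Of these, 1 was under the floor on all 4 arrays and so gave no measured difference, and the other gave 0.07. The Met adaptor Gab1 differed by 0.33 ± 0.22 and the integrin chain Itgb7, which pairs with the Vcam1 receptor chain Itga4, by 0.61 ± 0.42, both with the regions apart. Other tested probe sets of Gab1 gave 0.09 ± 0.18 and -0.49 ± 0.72 with the regions overlapping. On the latter the synaptic arrays read 813 and 3553 and the non-synaptic arrays 1939 and 2935. Itgb7 differed by 0.12 without the non-synaptic replicate 1. Itga4 itself differed by 0.07, and the cadherin-bound catenins Ctnnb1 and Ctnna1 by -0.04 ± 0.18 and 0.02 ± 0.17. On other tested probe sets Ctnnb1 gave -0.64 ± 0.73 and -0.33 ± 0.68, with the regions overlapping and the synaptic replicate 1 lowest. The Schwann cell marker values given with Calcr come from the same arrays, and their part in these values was not tested.

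The largest differences among the members and the 5 pathway lists were in known targets of the myogenic factors. That list holds the acetylcholine receptor genes and was chosen with earlier results of these data known. Its rank is therefore not a test of the factors. Of 18 tested genes 14 were positive, against 6354 of all 12363 genes tested. The median was 0.09, against 0.11 for the ligands, co-receptors and adaptors. By limma 0 passed at an adjusted p under 0.05. At an unadjusted p under 0.05, 3 were higher and 0 lower, where 0.825% of all genes tested were higher and 0.372% lower. These 3 were the receptor subunits Chrna1 and Chrne, printed above with their E-boxes, and the embryonic myosin Myh3. The intensities of Chrna1 were 9702 and 8633 in the synaptic and 2345 and 2343 in the non-synaptic region, about 3.9-fold apart (log2 difference 1.97 ± 0.19, limma adjusted p = 0.198). Myh3 read 1661 and 2077 in the synaptic and 612 and 752 in the non-synaptic region, and differed by 1.45 ± 0.28 (limma adjusted p = 0.9999). Chrne differed by 3.11 ± 0.67 (limma adjusted p = 0.9999), with 6376 and 3470.1 against 1023 and 291. For all 3 the synaptic arrays lay above both others, as they did for 4 of the 18 and for 10.6% of all genes tested. Tnnt2, the cardiac and embryonic troponin T, differed by 1.05 ± 0.54 with overlapping regions, and the abundant fibre genes Ckm and Mylpf by 0.01 ± 0.14 and 0.10 ± 0.17. Over the same arrays the 4 basic helix-loop-helix members, Myf5, Myf6, Myod1 and Myog, had differences from -0.12 to 0.23. The difference between a target's and a factor's response was not tested.

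**Figure D3:**
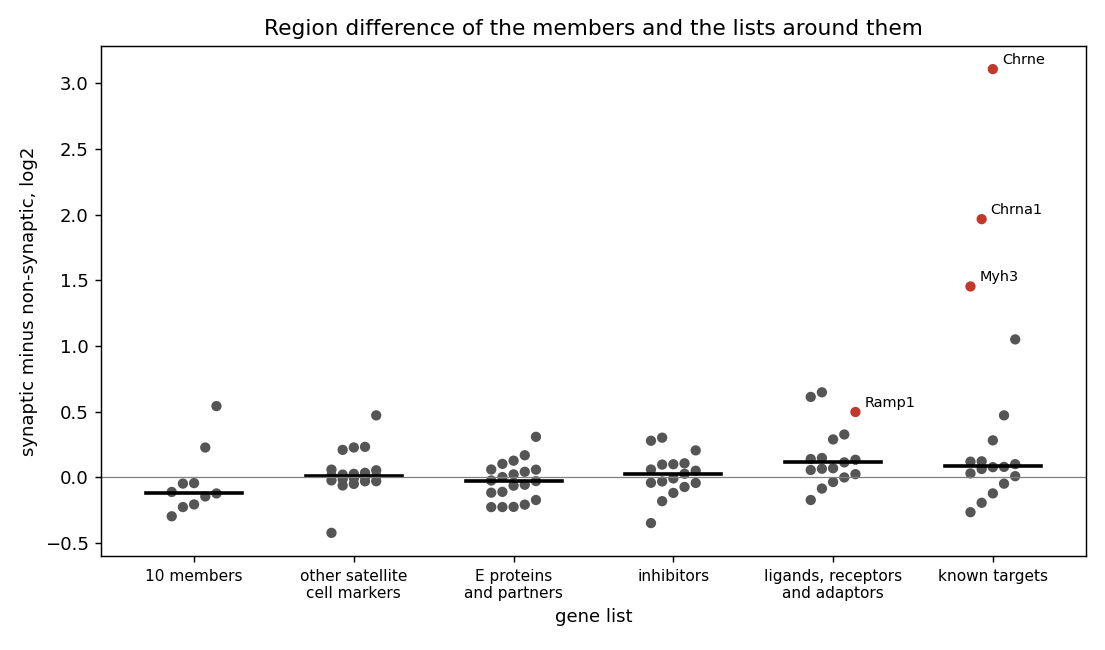
Log2 difference, synaptic minus non-synaptic, of each tested gene in the members and in 5 lists around them, each point a gene on its brightest probe set, with black bars at the medians; red points have an unadjusted limma p under 0.05. The points of most lists lie near 0, and Chrne, Chrna1, Myh3 and Ramp1 are the red points.

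All 10 listed fibre genes were tested, with a median difference of 0.02, and Myh4, the fastest myosin, differed by -1.32 ± 0.18 (limma adjusted p = 0.492) while Myh2 differed by 0.15 ± 0.17. The median was -0.12 for fibroblasts, -0.17 for macrophages, -0.11 for mesothelium, -0.07 for smooth muscle and pericytes and -0.12 for 5 tested genes of spindles and immature fibres, against 1.16 for Schwann cells and -2.57 for fat cells. Median intensity per array was between 658 and 769, and between 18.7% and 21.3% of probe sets were at the floor. The Gapdh control, whose 3' to 5' signal ratio reflects RNA integrity, gave ratios from 0.814 to 1.03, the highest on the synaptic replicate 1.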

How the data were processed

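The 4 arrays measured total RNA. The authors deposited 1 linear intensity per probe set, and the labels name no software. Trimmed of 2% at each end, every array averages 2500, so the authors' scaling was kept, which hides any change common to most transcripts. Values under 159 (20th percentile) were set to it before log2, and probe sets averaging under the 40th percentile and 64 controls were dropped. limma 3.58.1 (R 4.3.3, eBayes with an intensity trend, 2-sided, Benjamini-Hochberg over 26480 probe sets, threshold 0.05) compared the regions, and gave the SEs and intervals. Exact permutation of 2 against 2 reaches p = 0.333 at best. The sizes that the fit estimates were checked on simulated arrays with known changes, and its p-values were not.

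Symbols are the platform's, updated to RefSeq GRCm38.p6 for 34754 of 34958 single-gene probe sets (932 name several genes, 9211 none). A gene's brightest single-gene probe set stands for it. The naming rule picked all members, up to 4 genes of each pathway list by smallest p and 2 by highest mean, and 2 of each cell type list by smallest p. Not all of those of the cell type lists are given in the text. Itga4 was added after its values were seen, and Chrnb1, Chrng and Chrnd are named outside this rule. Members and lists were chosen with earlier results of these data known. Alternatives changed the normalization, filter, floor or prior, added a replicate block, left out each array, or averaged a gene's probe sets.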

Additional observations from a re-analysis of the deposited data

How the results depend on the processing

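Over 13 other fits, the number of member probe sets called stayed at 0 in both directions, with the smallest adjusted p of a member gene at 0.914. The sign of the difference changed in some setting for 7 of the 10 member genes. Each of the 7 changed when 1 array was left out, and Pax3 (0.09) and Pax7 (0.06) also when all probe sets of the gene were averaged. Myf5 (0.03 to 0.42), Calcr (0.46 to 0.62) and Vcam1 (-0.22 to -0.003) kept theirs without each array. Myod1 ranged from -0.51 to 0.42.

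Over all probe sets, 1 was called higher and 2 lower. Median centring raised the higher count to 6 and a 60th percentile filter to 3, while dropping the filter or the intensity trend brought both counts to 0. A 40th percentile floor left 1 lower. The range without each array in turn was 0 to 6 for higher and 0 to 5 for lower, and both were 0 without replicate 1 or replicate 2 of the non-synaptic region. With the replicate block the counts were 56 higher and 18 lower, with Chrna1 at an adjusted p of 7.42e-05, Chrne at 0.00032 and Myh4 at 0.00117, and 0 members called. Myh4 also passed without replicate 2 of the synaptic region (adjusted p = 0.0430). Deviations of same-numbered arrays from their region's mean correlated at 0.634 over probe sets, but 2 pairs do not establish a pairing. The cause of these changes was not tested. Of the 46 other genes picked by the naming rule, 14 changed sign in some setting, and 0 of the 7 that passed in some setting did. Weak signal limits Calcr and the dim probe sets of Pax3, Pax7, Met and Vcam1.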
